A study of Mus musculus with 6 samples.

Results

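The enzymes described here make serine from glucose, move its side-chain carbon through the folate cycle, and make asparagine. They were read from a transcriptome of mouse immature dendritic cells, with hydrogen peroxide (H2O2) used by the study to model oxidative stress. The 10 genes, Phgdh, Psat1, Psph, Shmt1, Shmt2, Mthfd1, Mthfd2, Mthfd1l, Aldh1l2 and Asns, were taken by symbol from the 17567 gene rows of each library, whatever their values. All 10 had a row, and all 10 were among the 12209 genes with enough counts to be tested.

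The cells were grown from marrow of male C57BL/6 mice aged 6 weeks, with 20 ng/mL of recombinant GM-CSF, 10 ng/mL of recombinant IL-4 and 10% bovine serum. They were taken on day 6 and enriched on beads for CD11c, an integrin of dendritic cells that macrophages can also carry. Control cells (3 libraries) and cells given H2O2 at 100 µM for 24 h (3 deposited libraries) share this culture. No genotype or transgene differs between the groups. Whether replicate libraries are from different mice or cultures is not said in the labels, so p-values measure only the spread between these libraries, which may be technical.

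Serine synthesis branches off glycolysis in 3 steps, run by PHGDH, PSAT1 and PSPH. Serine hydroxymethyltransferases (SHMT1 in the cytosol, SHMT2 in mitochondria) then split serine into glycine and a carbon unit carried by folate, which supplies purine and thymidylate synthesis, methionine and NADPH. MTHFD2, MTHFD1L and ALDH1L2 handle this unit in mitochondria, and MTHFD1 does so in the cytosol. Asparagine synthetase (ASNS) amidates aspartate. Many of these genes are known targets of ATF4, the transcription factor of the integrated stress response, which is switched on by amino acid shortage and other stresses through phosphorylated eIF2.

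Library totals lay between 16232604 and 16672491 estimated counts. The deposited values of H2O2 replicate 3 equalled those of H2O2 replicate 1 in all 17567 rows, so both were counted as 1 library and 2 distinct H2O2 libraries remained. The 5 libraries also fall into sets by 4 Y-linked genes: control replicate 1 and H2O2 replicate 1 held 106 and 96.4 counts per 1000000 (CPM) of them in sum (set A), and the other 3 libraries at most 0.427 CPM (set B), although all mice are labelled male. What the sets stand for is not given in the labels. Itgax, the CD11c gene, stood between 1518 and 2138 CPM in every library. Cd209a, a marker of monocyte-derived dendritic cells, was at 0 in 3 libraries and at most 0.36 CPM in the others. Other dendritic cell markers were higher, with Cd74 at 2114 to 3113 CPM, Mgl2 at 1119 to 2552 CPM and Zbtb46 at 52.3 to 73.2 CPM. The lowest of those others was Flt3, at 1.34 to 13.2 CPM. Markers of T, natural killer and B cells summed to at most 3.30 CPM and erythroid markers to at most 0.986 CPM.

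Cells given H2O2 held less of the transcripts for serine synthesis, for the mitochondrial folate enzymes and for asparagine synthesis. Phgdh was 2.42-fold lower, Shmt2 2.26-fold, Aldh1l2 2.22-fold, Mthfd2 1.66-fold, Asns 1.60-fold and Psat1 1.54-fold. These 6 of the 10 genes passed the test with a term for the set, described below, and 0 of the 10 passed in edgeR without that term. Psph, Shmt1 and Mthfd1l had lower values that did not pass, and Mthfd1, the cytosolic folate enzyme, had a higher value that did not pass. Summed over the 10 genes, the controls held 506, 584 and 573 CPM and the H2O2 libraries 328 and 326 CPM, without scaling factors. These sums rest largely on the most abundant genes. Mthfd2 alone stood at 216 to 223 CPM in the controls and at 143 and 126 CPM with H2O2, with scaling factors. In bulk RNA, fewer cells of a type and less RNA per cell cannot be told apart.

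The test was edgeR's quasi-likelihood test with a term for the set, which compares H2O2 with control inside each set. Genes were called where the p, adjusted by Benjamini and Hochberg's method over all 12209 genes, was 0.05 or less. Of all tested genes 4.61% were called lower and 3.93% higher, against 6 and 0 of the 10 enzymes. The median log2 change of the 10 was -0.68 and that of all tested genes 0.0089. "Fell" and "rose" below refer to this fit. Without the set term edgeR called 0 genes in either direction (0% of those tested), and 853 of the 12209 genes had an unadjusted p under 0.05. The adjusted p of the 10 enzymes then lay between 0.39 and 0.74. At an unadjusted p under 0.05 without the term, 4 of the 10 were lower (Phgdh, Psat1, Shmt2 and Mthfd2), against 3.19% of all tested genes. Limma-voom without the term also called 0 of the 10, and DESeq2 without it called Phgdh, Shmt2 and Mthfd2. With H2O2 replicate 2 left out, set B holds controls only, so the change is that of H2O2 replicate 1 against control replicate 1 alone. In that fit none of the 10 was called, with log2 changes between -0.52 and -1.22 for the 6 called in the main fit.

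Between groups, 7 of the 10 genes were lower in both H2O2 libraries than in every control library, against 10.7% of all tested genes. Mthfd1 was higher in both than in every control, against 13% of all tested genes. Read inside the sets, 9 of the 10 were below every control library of their own set in both sets, against 28% of all tested genes. The plot of each gene by library shows these values.

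**Figure D1:**
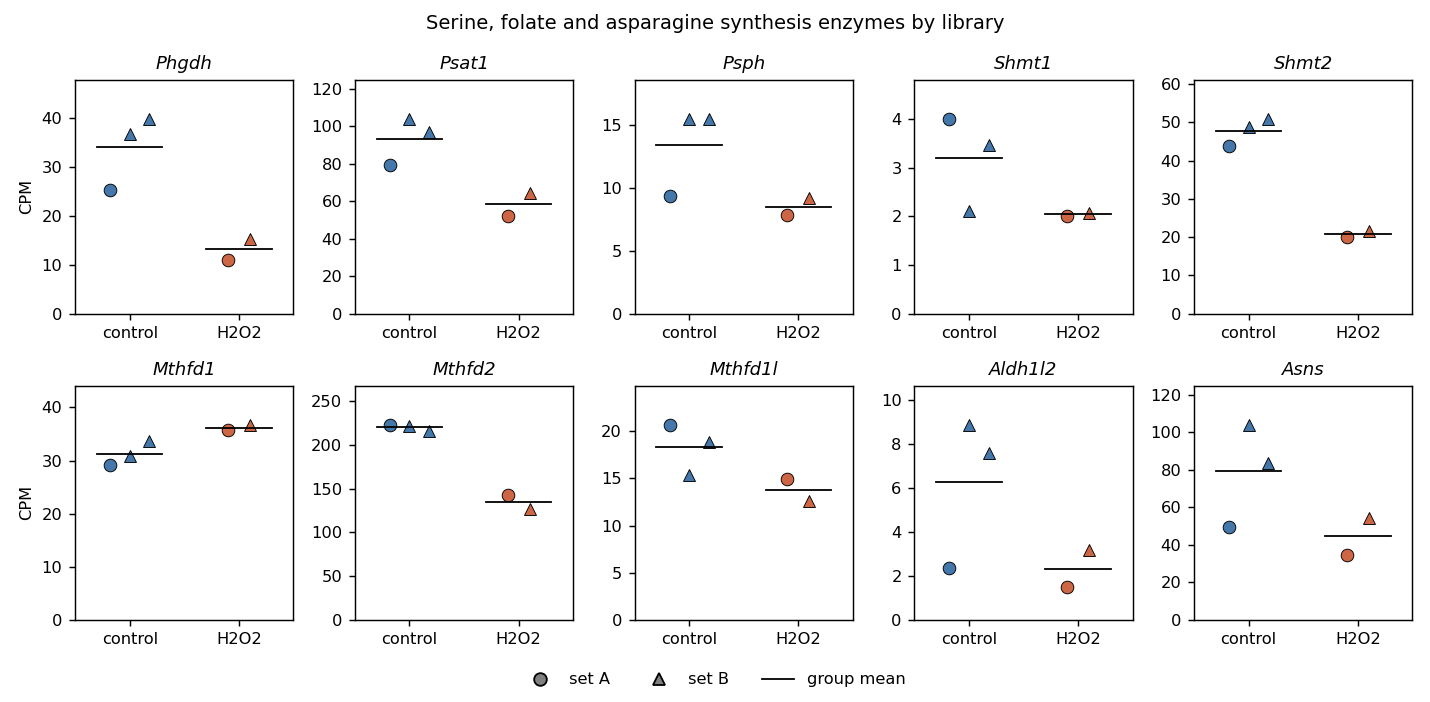
Level of each of the 10 enzyme genes in the 5 distinct libraries, in CPM scaled with TMM factors (each vertical axis starts at 0). Blue points are controls and orange points H2O2, circles are set A and triangles set B, and lines are group means. Mthfd2 sits near 220 CPM in all 3 controls and at 143 and 126 CPM with H2O2, whereas Asns and Aldh1l2 differ as much between the sets as between the groups.

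The serine branch starts with Phgdh (NCBI Gene 236539, chromosome 3, 98313171 to 98339969, GRCm38.p6), which encodes 3-phosphoglycerate dehydrogenase, the entry step from glycolysis. The Phgdh level was 25.4, 36.9 and 39.9 CPM in control replicates 1, 2 and 3 and 10.9 and 15.4 CPM in H2O2 replicates 1 and 2. Both H2O2 libraries lay well below the lowest control. The log2 change was -1.28 ± 0.10 (SE; adjusted p = 0.00505 by edgeR), with 34.1 ± 7.66 CPM (SD, n = 3) in control and 13.1 ± 3.12 CPM (n = 2) with H2O2. It was the lowest estimate of the 10, with an error that overlaps those of Shmt2 and Aldh1l2, and the eleventh smallest p of all tested genes.

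Psat1 (chromosome 19, 15905123 to 15925059) encodes phosphoserine aminotransferase, the second step, which takes its nitrogen from glutamate. Its level was 79.0, 104 and 97.1 CPM in the controls and 52.3 and 64.4 CPM with H2O2, again with no overlap. Psat1 fell, with a log2 change of -0.62 ± 0.07 (adjusted p = 0.0145 by edgeR). Psph (chromosome 5, 129765558 to 129787443) encodes the phosphatase that releases serine. It stood at 9.36, 15.5 and 15.4 CPM in the controls and at 7.80 and 9.20 CPM with H2O2. The lowest control, of set A, lay just above the higher H2O2 library, of set B, so the groups parted by a narrow margin. Psph was not called (log2 -0.54 ± 0.15, adjusted p = 0.0728 by edgeR). Its adjusted p was 0.0179 without control replicate 1 and 0.0313 without H2O2 replicate 1 (edgeR). In those fits the change rests on H2O2 replicate 2 alone against 2 controls, and the spread is that of the 2 controls, with the single H2O2 library assumed to vary alike.

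Of the serine hydroxymethyltransferases, Shmt2 (chromosome 10, 127517123 to 127522444) is the mitochondrial enzyme. It stood at 43.7, 48.6 and 50.9 CPM in the controls and at 20.0 and 21.5 CPM with H2O2. The libraries of each group lay close together, with a wide gap between the groups. The log2 change was -1.17 ± 0.08 (adjusted p = 0.0044 by edgeR), the smallest p of the 10 genes and the sixth of all tested genes.
The cytosolic gene Shmt1 (chromosome 11, 60788897 to 60811265) was scarce, with 69, 35 and 57 counts in the controls and 34 and 32 with H2O2. At 4.01, 2.11 and 3.48 CPM against 2.01 and 2.07 CPM the groups did not overlap, but control replicate 2 lay next to the H2O2 libraries. The log2 value of -0.69 ± 0.29 did not pass (adjusted p = 0.183 by edgeR), and its difference from that of Shmt2 was not tested.

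Mthfd2 (chromosome 6, 83305704 to 83326011) encodes the mitochondrial methylenetetrahydrofolate dehydrogenase and cyclohydrolase, an enzyme abundant in embryonic and dividing cells. Its level was 223, 222 and 216 CPM in the controls and 143 and 126 CPM with H2O2. The control libraries of both sets agreed closely, and both H2O2 libraries were lower. Mthfd2 fell by 0.73 ± 0.07 on the log2 scale (adjusted p = 0.00966 by edgeR). Mthfd1l (chromosome 10, 3972892 to 4167081) encodes the mitochondrial formyltetrahydrofolate synthetase, which lets formate leave for the cytosol. It stood at 20.7, 15.4 and 18.9 CPM in the controls and at 14.96 and 12.6 CPM with H2O2. The highest H2O2 library was close to the lowest control, and the log2 value of -0.45 ± 0.13 was not called (adjusted p = 0.0769 by edgeR).

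Aldh1l2 (chromosome 10, 83487447 to 83534146) encodes the mitochondrial formyltetrahydrofolate dehydrogenase, which makes NADPH while oxidizing the carbon unit. It rested on few counts, 41, 147 and 125 in the controls and 25 and 49 with H2O2. In CPM these are 2.38, 8.88 and 7.62 against 1.48 and 3.17. Control replicate 1 lay below H2O2 replicate 2, so the groups overlapped, while in each set the H2O2 library was the lowest. Aldh1l2 fell by 1.15 ± 0.23 on the log2 scale (adjusted p = 0.0322 by edgeR). The call was lost without control replicate 2 (adjusted p = 0.0651) or control replicate 3 (adjusted p = 0.075), and the log2 value moved to -0.69 without H2O2 replicate 2.

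Mthfd1 (chromosome 12, 76254406 to 76319820) encodes the cytosolic protein that joins the dehydrogenase, cyclohydrolase and synthetase steps. It stood at 29.1, 30.8 and 33.8 CPM in the controls and at 35.7 and 36.7 CPM with H2O2. Every H2O2 library was above every control, by little, and the log2 value of 0.23 ± 0.09 was not called (adjusted p = 0.144 by edgeR). Counts of one gene over another inside a library need no scaling factor. The ratio of Mthfd2 to Mthfd1 counts was 7.65, 7.20 and 6.404 in the controls and 4.01 and 3.44 with H2O2. That of Mthfd1l to Mthfd1 was 0.711, 0.50 and 0.560 against 0.419 and 0.344. For both ratios the groups did not overlap, so the mitochondrial transcripts were lower relative to the cytosolic one in each H2O2 library. The CPM values of these genes already parted the groups in these directions, so the ratios are not separate support. The ratio of Shmt2 to Shmt1 counts, at 10.9, 23.0 and 14.6 against 9.94 and 10.4, parted the groups only narrowly and rests on the few Shmt1 counts.

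**Figure D2:**
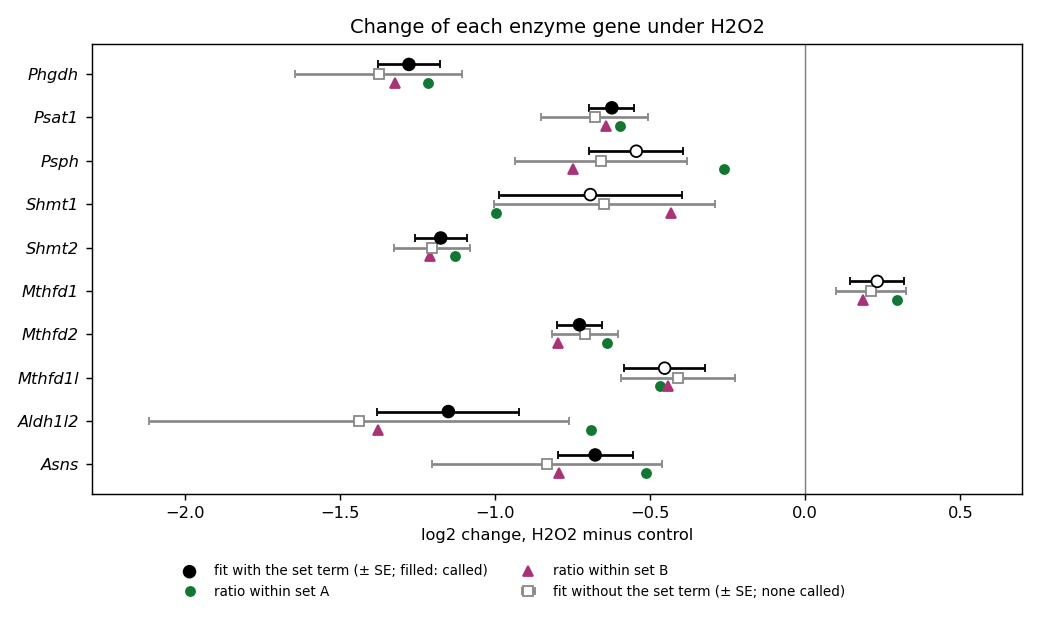
Log2 change, H2O2 minus control, of each gene. Circles with SE bars are the edgeR fit with the set term (filled: called at an adjusted p of at most 0.05), squares with SE bars the fit without it, and coloured symbols the CPM ratios within set A and within set B; Phgdh and Shmt2 lie beyond -1 in all of these, and Mthfd1 lies above 0.

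Asns (chromosome 6, 7675165 to 7693209) encodes asparagine synthetase, which uses glutamine as the nitrogen donor. Its level was 49.6, 104 and 83.9 CPM in the controls and 34.8 and 54.2 CPM with H2O2. Control replicate 1 of set A lay below H2O2 replicate 2 of set B, so the groups overlapped. Inside each set the H2O2 library was the lowest: 34.8 against 49.6 CPM in set A, and 54.2 against 104 and 83.9 CPM in set B. Each set holds 1 H2O2 library, and set A holds 1 control. Asns fell by 0.68 ± 0.12 on the log2 scale (adjusted p = 0.0259 by edgeR), and the log2 value was -0.83 ± 0.37 without the set term (adjusted p = 0.706). With no filter on low counts, which tests more genes, neither Asns (adjusted p = 0.0619) nor Aldh1l2 (adjusted p = 0.0662) was called.

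Because several of these genes moved together, the sequence before their start sites was searched. RefSeq windows of 300 bases (250 before the start and 50 after, GRCm38.p6) matched 9 of the 10 genes, with a second window for Psat1. Aldh1l2 had no window. The letters searched on both strands were TGATGNAA, the composite element bound by ATF4 with C/EBP factors, CACGTG, the E-box bound by MYC and related factors, and TGACNNNGC, the core of the antioxidant response element. TGATGNAA was found in Asns alone of the 9, in 3.97% of all 32817 windows and in 2.33% of the 12595 windows of tested genes. CACGTG was found in none of the 9, in 7.15% of all windows and in 9.85% of those of tested genes. TGACNNNGC was found in Phgdh, Psph and Asns, in 12.4% of all windows and in 14.3% of those of tested genes. A match is a description of letters, and no match says only that the letters are not in this window.
The 250 bases before the start of Asns, which holds the match to the ATF4 element, and of Phgdh, the lowest log2 change, are shown 5′ to 3′ on the strand of the gene (minus for both), with matches in capitals. In Asns they are GCAGTGTCA, the antioxidant core on the opposite strand from base -172, and TGATGAAA from base -23, where -1 is the last base before the start. In Phgdh the capitals are GCGGAGTCA, the antioxidant core on the opposite strand from base -53.
Asns, chr6:7693210-7693459: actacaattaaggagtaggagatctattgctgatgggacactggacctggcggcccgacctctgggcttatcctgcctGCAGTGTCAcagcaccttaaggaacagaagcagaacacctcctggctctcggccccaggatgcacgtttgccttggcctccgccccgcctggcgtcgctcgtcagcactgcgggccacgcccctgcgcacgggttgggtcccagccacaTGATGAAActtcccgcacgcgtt
Phgdh, chr3:98339970-98340219: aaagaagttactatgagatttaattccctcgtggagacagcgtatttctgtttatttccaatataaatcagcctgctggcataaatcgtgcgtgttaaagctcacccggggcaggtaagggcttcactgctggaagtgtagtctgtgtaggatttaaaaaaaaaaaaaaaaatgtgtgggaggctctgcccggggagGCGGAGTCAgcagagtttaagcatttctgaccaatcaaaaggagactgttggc

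The sets were also compared. Inside set A, with 1 library a group and no test, the H2O2 library was 2.32-fold lower for Phgdh, 2.19-fold for Shmt2, 1.61-fold for Aldh1l2, 1.56-fold for Mthfd2, 1.51-fold for Psat1 and 1.43-fold for Asns. Inside set B, against the mean of its controls, the same genes were 2.50-, 2.31-, 2.60-, 1.74-, 1.56- and 1.73-fold lower. Over the 10 genes the log2 changes had medians of -0.62 (set A) and -0.77 (set B), beside 0.0065 and -0.0034 for all tested genes. None of the 10 passed edgeR's test of a change that differs between the sets (smallest adjusted p = 0.459, for Psph), a test that 0.0164% of all tested genes passed and that leaves 1 residual degree of freedom.

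Apart from H2O2, 5 of the 10 were higher in set B than in set A (Aldh1l2, Asns, Phgdh, Psph and Psat1) and none lower, against 16.9% and 19.1% of all tested genes. Aldh1l2 was 2.92-fold higher in set B (log2 1.55 ± 0.23, adjusted p = 0.00291 by edgeR), Asns 1.75-fold, Phgdh 1.47-fold, Psph 1.44-fold and Psat1 1.26-fold. Shmt2 and Mthfd2, which also fell with H2O2, were not called between the sets (log2 0.16 ± 0.08 and -0.09 ± 0.07). The plot of set difference against H2O2 change places the serine genes, Asns, Aldh1l2, Shmt2 and Mthfd1 (log2 0.10, not called) to the right of 0. Mthfd2, Mthfd1l and Shmt1 lie to the left.

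**Figure D3:**
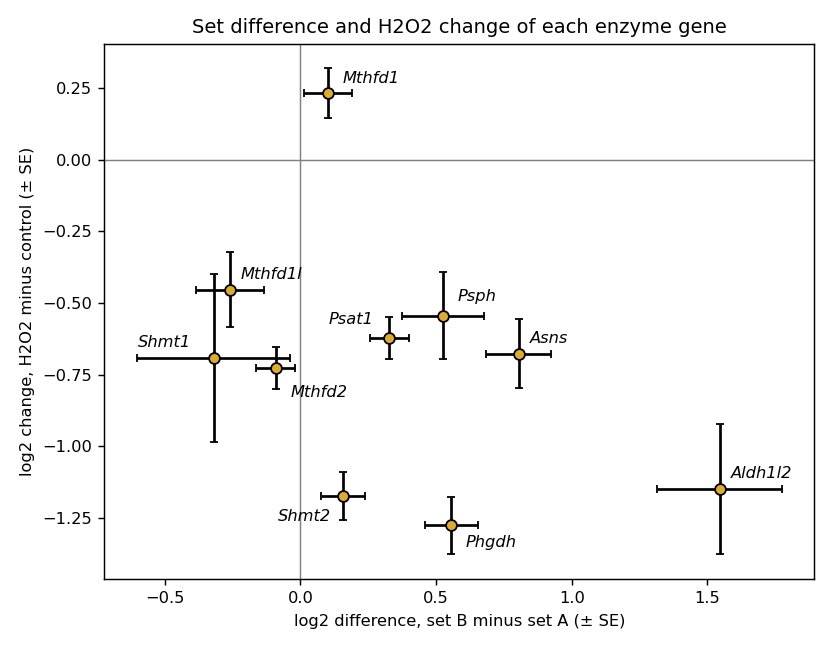
Log2 difference of set B minus set A (horizontal) against log2 change of H2O2 minus control (vertical) for the 10 genes, both from the edgeR fit with the set term, with SE bars. Aldh1l2 lies farthest to the right at 1.55, Shmt2 and Mthfd2 lie near 0 on the horizontal axis, and Mthfd1 is above 0 on the vertical axis.

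Levels of different genes are set side by side per kilobase of exon (union of GENCODE M21 exons). In the controls Mthfd2 was highest at 63.2 ± 1.01 CPM per kilobase (SD, n = 3), followed by Asns at 28.9 ± 10.0, Psat1 at 21.95 ± 3.03, Shmt2 at 15.4 ± 1.18 and Phgdh at 13.7 ± 3.08. Mthfd1 stood at 7.03 ± 0.53, Mthfd1l at 4.13 ± 0.61, Psph at 3.10 ± 0.81, Aldh1l2 at 0.84 ± 0.46 and Shmt1 at 0.82 ± 0.25 CPM per kilobase. The control ranges overlapped between Asns and Psat1, Shmt2 and Phgdh, Mthfd1l and Psph, and Aldh1l2 and Shmt1. With H2O2, Mthfd1 stood at 8.04 and 8.27 CPM per kilobase, above both libraries of Shmt2 (6.43 and 6.92) and of Phgdh (4.40 and 6.18), whereas in the controls it lay below both genes.

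Other genes of one-carbon and amino acid metabolism were read from lists, and their list medians stand beside 0.0089 for all tested genes. Their counts are read beside the 4.61% of all tested genes called lower and 3.93% called higher; a single call in a list of this size is near that background and is not a result about the list. Of 18 tested genes of the folate cycle, folate transport and glycine cleavage, 1 fell and none rose (median log2 0.02). The gene was Tyms, thymidylate synthase, which uses a folate carbon unit to make DNA precursors, at log2 -0.90 ± 0.12 (32.0 ± 10.5 CPM to 19.2 ± 8.77 CPM). Dld, a shared dehydrogenase subunit and the most abundant of the list, stood at 0.08 ± 0.08. Aldh1l1 and Mthfd2l, the relatives of Aldh1l2 and Mthfd2, were looked up after the values were seen. They stood at -0.30 ± 0.10 and 0.17 ± 0.21 and were not called.

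In the methionine cycle and transsulfuration, 1 of 8 tested genes rose and 1 fell (median -0.0033). Mat2a, which makes the methyl donor S-adenosylmethionine, rose by 0.37 ± 0.07, and Ahcy, which clears its product, fell by 0.41 ± 0.09, both on the log2 scale. Ahcyl1, the most abundant, stood at -0.08 ± 0.06. Among 9 genes of serine and glycine use, 1 rose and none fell (median -0.06). That gene was Serinc1, a membrane protein named for serine incorporation into lipids (log2 0.45 ± 0.09), while Serinc3, the most abundant, stood at -0.06 ± 0.09.
Of 12 purine synthesis genes, 1 fell and none rose (median -0.02), namely Prps1, which makes the activated ribose that purines are built on (log2 -0.47 ± 0.09). Adss, the most abundant of them, stood at -0.05 ± 0.09. None of 6 pyrimidine genes was called (median -0.04), and Cad, which starts that pathway, stood at 0.27 ± 0.09.

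Among 19 tested genes of other amino acid synthesis and breakdown, 2 fell and 1 rose (median -0.07). Aldh18a1, the entry step of proline synthesis, fell by 0.94 ± 0.09 on the log2 scale, from 85.0 ± 29.7 CPM to 39.4 ± 13.6 CPM (adjusted p = 0.00929 by edgeR). Glud1, glutamate dehydrogenase, fell by 0.36 ± 0.07, and Bcat1, the cytosolic branched-chain aminotransferase, rose by 0.58 ± 0.13. Asrgl1, an asparaginase that undoes the step of Asns, stood at -0.51 ± 0.21 (adjusted p = 0.17), and Ass1, the argininosuccinate synthase and most abundant of the list, at 0.18 ± 0.07.

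Among the regulators, of 15 tested eIF2 kinases, eIF2 phosphatase subunits and transcription factors, Cebpb rose (log2 0.38 ± 0.08) and Cebpg, a partner of ATF4, fell (log2 -0.33 ± 0.07), with a list median of 0.07. Atf4 itself stood at -0.23 ± 0.09 (236 ± 18.4 CPM to 200 ± 16.1 CPM, adjusted p = 0.144 by edgeR). ATF4 is known to be set largely by translation, which these libraries do not measure. Ddit3, which encodes CHOP, stood at -0.17 ± 0.11, Myc at -0.14 ± 0.09 and Nfe2l2, which encodes NRF2, at 0.28 ± 0.08, none of them called.

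Of 32 other genes known as ATF4 targets, 10 fell and 2 rose, beside 4.61% and 3.93% of all tested genes, with a median of -0.29. Slc7a5, a carrier of large neutral amino acids, fell by 1.36 ± 0.07 on the log2 scale (102 ± 50.5 CPM to 33.9 ± 22.9 CPM, adjusted p = 0.00257 by edgeR). Chac1, which degrades glutathione, fell by 1.08 ± 0.17 and Trib3, a pseudokinase that feeds back on ATF4, by 0.59 ± 0.10. The others that fell were Aldh18a1, Slc1a4, Slc7a1, Nupr1, Herpud1 and the tRNA synthetase genes Gars and Mars1. Those that rose were Slc7a11, the cystine carrier that supplies glutathione synthesis (log2 0.53 ± 0.08, the most abundant at 774 ± 12.6 CPM in control), and the stress factor gene Atf3 (log2 0.61 ± 0.09). Both are also known to respond to other stress pathways, and what moved any gene of this list, up or down, was not tested. Aldh18a1, Gpt2, Pycr1 and Cth stand in this list and in an earlier one.

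**Figure D4:**
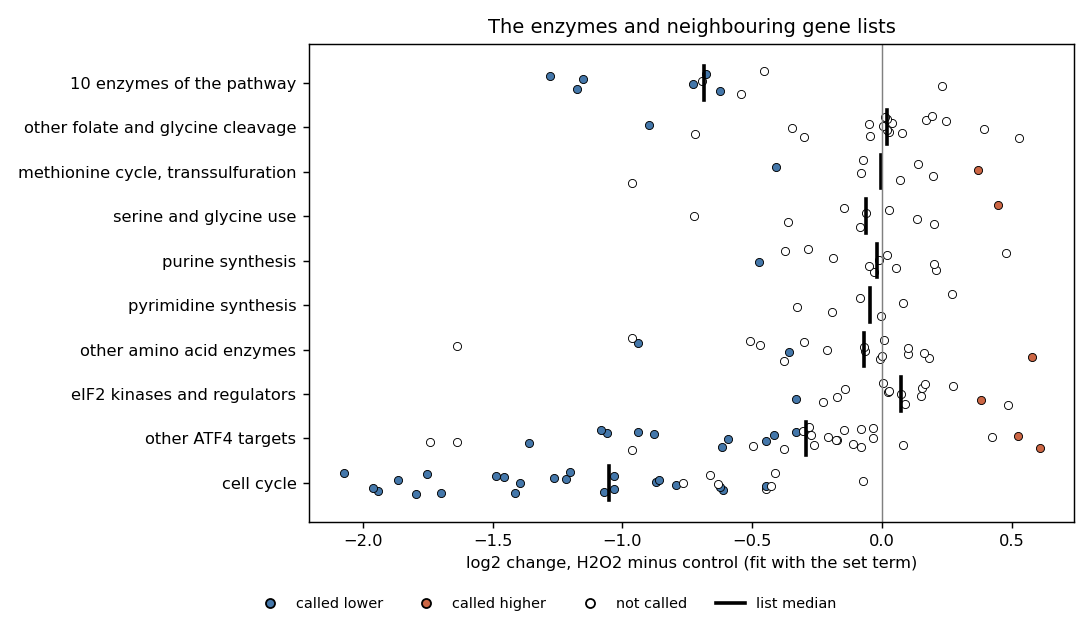
Log2 change of every tested gene of the 10 enzymes and of 9 other lists, from the edgeR fit with the set term. Each point is a gene (blue called lower, orange called higher, white not called) and bars are list medians; the 10 enzymes centre on -0.68, most neighbouring metabolic lists near 0, other ATF4 targets on -0.29 and cell cycle genes on -1.05.

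Markers of dividing cells moved with the enzymes. Of 30 cell cycle genes 23 fell and none rose, beside 4.61% and 3.93% of all tested genes, with a median of -1.05. Those that fell included the mitotic kinases Aurkb (log2 -1.26 ± 0.16) and Plk1 (log2 -1.87 ± 0.25). The list summed to 2562, 963 and 1523 CPM in control replicates 1, 2 and 3 and to 1204 and 634 CPM in H2O2 replicates 1 and 2. Between the sets the medians differed in direction: the median set B minus set A difference was -0.93 for the cell cycle list and 0.24 for the 10 enzymes. Among the enzymes, Shmt1 (-0.32), Mthfd1l (-0.26) and Mthfd2 (-0.09) also lay below 0, none of them called, and the others lay above 0. The part of cell division in the fall of the enzymes was not tested.
Markers of other cells were also read, beside the same 4.61% called lower and 3.93% called higher of all tested genes. A single call in so short a list is not a result about the list. Those of mast cells and basophils summed to between 36.2 and 86.4 CPM in the controls and to 11.5 and 25.3 CPM with H2O2, and 5 of 8 fell. Eosinophil markers summed to between 32.7 and 60.9 CPM against 23.3 and 32.7 CPM (3 of 4 fell and 1 rose). Siglecf alone made up 19.7 to 59.4 CPM of these sums. Neutrophil markers summed to between 579 and 1326 CPM against 978 and 1715 CPM (3 of 11 fell and 1 rose). Of these, Mmp8 alone made up 449 to 778 CPM in the controls and 857 and 1165 CPM with H2O2. Macrophage and monocyte markers summed to between 29795 and 32507 CPM against 32576 and 37155 CPM (1 of 11 rose and 2 fell). Chil3 alone made up 28284 to 35720 CPM of these sums, and the other macrophage markers summed to between 1363 and 1512 CPM in the controls against 1461 and 1435 CPM with H2O2, inside the control range. Dendritic cell markers summed to between 9652 and 9831 CPM against 7741 and 8073 CPM (7 of 11 fell). Stromal and endothelial markers summed to between 88.3 and 120 CPM against 78.2 and 104 CPM, with Col3a1 at 0 in every library and no call. Pecam1 alone made up 77.4 to 118 CPM of these sums, while Col1a1, Col1a2 and Cdh5 reached at most 0.363 CPM. Their part in the result was not tested.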

How the data were processed

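Each deposited file lists raw estimated counts by NCBI Gene number, per the file headers, and up to 9.03% of the values in a library are not whole. HISAT, Bowtie2 and GRCm38.p6 are named in the submitters' processing notes, without roles or versions. Which counter, annotation, strand setting and filters were used is not given in the sources used here, so overlapping and antisense genes may share reads. RefSeq (GRCm38.p6) matched 17520 of 17567 gene numbers (99.73%), and the 47 others held 0.133% of the counts.

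Counts were rounded, filtered with filterByExpr (minimum count 10, minimum total 15) and scaled with TMM factors. EdgeR's quasi-likelihood F test was fitted over 12209 genes with terms for treatment and set (set A: at least 100 counts over 4 Y-linked genes), which leaves 2 residual degrees of freedom. Each SE was obtained by dividing the size of the log2 change by the root of its F statistic. The fits were tested on simulated data. Alternatives were the fit without the set term, a replicate block, DESeq2, limma-voom, RLE scaling, no filter, the copied library kept, and each library left out. DESeq2 1.42.0, limma 3.58.1 and edgeR 4.0.16 ran in R 4.3.3.

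The members, the 19 gene lists, the set term and the tests were chosen with earlier results of these data known. Named genes are the 10 members, the 2 called genes of lowest p and the most abundant gene of each pathway list, the 2 called cell cycle genes of lowest p, and 10 genes chosen by name, of which 2 are not reported here. Any further called genes were named after their values were seen.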

Additional observations from a re-analysis of the deposited data

How the results depend on the processing

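No enzyme's log2 change turned sign over the 15 settings run. The number of genes called, 1043 with the set term, was 0 without it in edgeR and in limma-voom, 105 in DESeq2 without it, 102 with no filter on low counts and 2820 with the copied library kept, which counts 1 library as 2. The enzymes called were 6 with the set term and 0 without it in edgeR and limma-voom. DESeq2 without it called 3, and the fit with no low-count filter called 4 (Asns and Aldh1l2 lost). The DESeq2 and limma-voom fits without the term were chosen after seeing the data. With the copied library kept 1 enzyme, Mthfd1, was called higher. With the replicate number as a block (1 residual degree of freedom) 554 genes and the same 6 enzymes were called, but of 21 called genes of the other pathway lists 11 were not (Mat2a, Ahcy, Serinc1, Prps1, Glud1, Bcat1, Cebpb, Cebpg, Gars, Nupr1 and Herpud1, adjusted p between 0.0559 and 0.146). The numbers pair 2 libraries each, whose deviations from the group means correlated at 0.81 (replicate 1) and 0.714 (replicate 2). With 2 H2O2 libraries, the deviation of 1 is the reverse of that of the other, so the 2 values are not separate support. Replicate 1 of each group is also set A, so the block parts the sets too. The labels do not say that a number marks a shared source. Leaving out each library gave between 1 and 2064 genes and between 0 and 7 enzymes called, the lowest without H2O2 replicate 2 and the most genes without control replicate 1, and 7 enzymes without either library of set A; those 2 fits compare 1 H2O2 library with 2 controls, assuming that it varies as they do. Enzymes called between the sets then numbered between 3 and 5, against 5. The fit without H2O2 replicate 2 compares H2O2 replicate 1 with control replicate 1 alone, because set B then holds controls only. The cause of the differences between settings was not tested. Low counts limit Shmt1 and Aldh1l2.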
